A study of Mus musculus with 6 samples.

Results

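Atg7 and the enzymes that work with it were followed in microglia, which are brain-resident macrophages, as 10 genes chosen by name: the activating enzyme Atg7, the conjugating enzymes Atg3 and Atg10, the conjugate genes Atg12, Atg5 and Atg16l1, and the proteases Atg4a, Atg4b, Atg4c and Atg4d. Each was 1 row among the 55487 genes of the deposited count table, and all 10 were among the 15787 genes that passed the expression filter and were tested. The cells were sorted by flow cytometry as live, CD45-intermediate and CD11b-positive out of the cortex of 6 mice, all female and 20 months old. The 3 control mice were Atg7-fl/fl, with loxP sites in Atg7 and no Cre, and the 3 knockout mice were Atg7-fl/fl;Cx3cr1-CreERT2. In the knockouts a tamoxifen-inducible Cre stands under the control of Cx3cr1, a gene of microglia and related macrophages, so the Cre allele and the deletion always came together. The labels used here mention no inducing treatment and no time since deletion, and they do not say which exons are floxed.

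Autophagosome membranes are decorated by a pair of reactions that resemble the attachment of ubiquitin. ATG7 activates the ubiquitin-like proteins ATG12 and LC3 with its relatives; ATG10 then passes ATG12 to ATG5, and ATG3 passes LC3 to the lipid phosphatidylethanolamine. The ATG12-ATG5 conjugate binds ATG16L1 and directs ATG3 to the membrane, while the ATG4 proteases trim newly made LC3 and release it from the lipid again. In microglia this pathway serves both the turnover of the cell's own organelles and the handling of engulfed material.

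Library totals ranged from 21282335 to 39389527 reads in 4 libraries, whereas control 3 held 1254380 and knockout 2 held 3789208; the latter pair are called the shallow libraries. The 6 libraries were used as separate replicates because the labels describe them so. Libraries of 1 group differed by more than counting noise (the lowest chi-square divided by its degrees of freedom was 39.4), which separate amplifications of 1 sample would do as well. The mitochondrial share of reads was between 0.87% and 1.17%. Of the 10 microglial markers examined none was at 0. Their summed level was 42168 to 46798 counts-per-million (CPM) in the controls and 36598 to 41423 CPM in the knockouts, without overlap. Of the 10 markers 2 had log2 fold changes above 0, and edgeR called 0 of them at an adjusted p under 0.05. Marker sums of other myeloid cells had higher means in the knockouts and overlapped between the groups. They were 15.3 to 84.9 CPM against 63.1 to 254 CPM for 8 border-associated macrophage markers, 9.65 to 45.6 CPM against 21.5 to 147 CPM for 6 monocyte markers, and 19.1 to 145 CPM against 85.0 to 786 CPM for 5 neutrophil markers. All of these markers had log2 fold changes above 0. Among 5 markers of T, NK and B cells, Ms4a1 was at 0 in all libraries and the sum reached 1.04 CPM at most. Sums of 5 astrocyte markers were 290 to 313 CPM in the controls and 263 to 344 CPM in the knockouts. For 5 oligodendrocyte markers they were 213 to 254 CPM against 207 to 229 CPM. For 5 endothelial markers they were 35.1 to 83.3 CPM against 35.8 to 53.5 CPM, and for 5 neuron markers 1.81 to 5.50 CPM against 0.779 to 3.72 CPM. The part of these cells in the results below was not tested, and in bulk RNA fewer cells of a type and less RNA per cell cannot be told apart.

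The exon of Atg7 that holds its catalytic cysteine codon comes first. Whether it is among the floxed exons is not given in the labels used here. The catalytic cysteine of ATG7, which carries the activated ATG12 or LC3 as a thioester, is encoded in exon 15 of the 19 exons of the GENCODE M21 transcript Atg7-201. This exon has 116 bases, lies on the plus strand of chromosome 6 at chr6:114709094-114709209 (GRCm38), and is fully coding. It is shown because it holds the residue without which the enzyme cannot work; the capitals mark the cysteine codon.
Atg7 exon 15: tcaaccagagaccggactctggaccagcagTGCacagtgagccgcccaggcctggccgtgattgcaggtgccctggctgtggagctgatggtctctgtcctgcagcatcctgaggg

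That transcript has 3761 bases, and its 16 fully coding exons have between 55 and 201 bases. The longest of them makes up 5.34% of the transcript and 2.88% of the 6968 exonic bases that GENCODE M21 gives Atg7 over 17 transcripts. No exonic base of Atg7 is shared with another annotated gene. The gene counts pool all exons, so reads of a deleted exon and of the remaining exons could not be separated.

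Atg7 RNA was lower in every knockout library than in every control library. The counts were 2498, 2468 and 72 reads in controls 1 to 3, against 845, 102 and 510 reads among knockouts 1 to 3. After scaling for depth (TMM-scaled CPM) they were 65.7, 66.4 and 56.6 CPM in the controls, against 25.0, 26.5 and 23.7 CPM among the knockouts. The groups lay far apart, with a coefficient of variation of 8.69% in the controls and 5.55% in the knockouts. Against the control mean, the reads left were 39.8%, 42.1% and 37.7% in knockouts 1 to 3. The edgeR adjusted p was 0.0147, and the log2 fold change of -1.33 (SE 0.19) had a 95% interval of -1.74 to -0.93, which corresponds to 0.299 to 0.526 of the control level. Counting error did not bring the shallow libraries together: the exact Poisson 95% interval was 44.3 to 71.2 CPM for the 72 reads of control 3 and 21.6 to 32.2 CPM for the 102 reads of knockout 2. Each interval holds the values of the other libraries of its group. The small coefficients of variation therefore do not measure how alike the mice were.

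Atg7 had rank 5 by p among all genes tested and was 1 of 2 genes called lower, a share of 0.0127% of the 15787. It was called by DESeq2 (adjusted p = 2.7e-08), by limma voom (adjusted p = 0.0109) and in the edgeR fit without both shallow libraries, where the log2 fold change was -1.44 (adjusted p = 0.0156). In an exact two-sided permutation test over libraries p was 0.1, the smallest that 3 against 3 libraries allow. The edgeR call did not survive the removal of a single library, control 3 excepted (adjusted p = 0.131 without control 1, 0.0527 without control 2, 0.135, 0.0865 and 0.0806 without knockouts 1, 2 and 3), with the log2 fold change between -1.41 and -1.29 in the 6 fits that leave out a library.

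**Figure D1:**
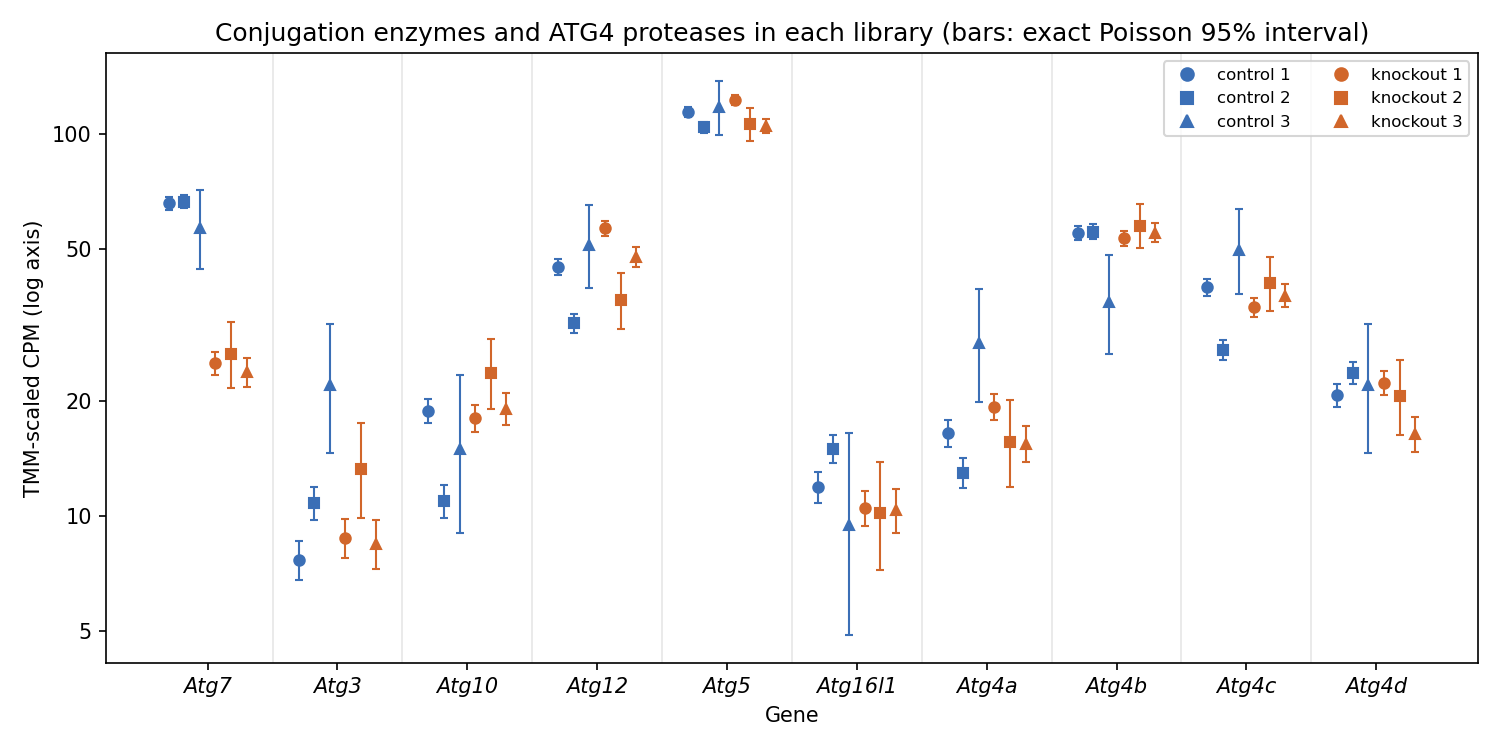
TMM-scaled CPM (log axis) of the 10 genes in each of the 6 libraries, with blue for controls, orange for knockouts, and bars for the exact Poisson 95% interval of the count. Only for Atg7 do the knockout points, at 23.7 to 26.5 CPM, lie apart from the control points, at 56.6 to 66.4 CPM; control 3 has the widest bars.

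The other 9 genes overlapped between the groups, and edgeR called 0 of them, as did DESeq2 and limma voom; 0 had an unadjusted p under 0.05. Over all genes tested, 0.0443% were called in either direction by edgeR, 0.527% by DESeq2 and 0.095% by voom, 4.32% had an unadjusted p under 0.05, and the groups did not overlap in 11.1%. The median log2 fold change of the 9 genes was -0.01, with 3 above 0 and 6 below, beside a median of 0.02 over all genes tested, of which 47.5% were below 0. A p that misses the threshold does not show that levels were equal, so each gene is given with its 95% interval.

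Among the conjugating enzymes, Atg3 had the widest interval of the set with all 6 libraries, and neither Atg3 nor Atg10 passed the threshold. Atg3, which passes LC3 to the lipid, had 7.65, 10.8 and 22.0 CPM in controls 1 to 3, against 8.73, 13.2 and 8.42 CPM among knockouts 1 to 3. The value of control 3 came from 28 reads, with an exact Poisson 95% interval of 14.6 to 31.8 CPM, and lay above the other 5 libraries. The log2 fold change of Atg3 was -0.34 (SE 0.41, 95% interval -1.21 to 0.54, edgeR adjusted p = 0.999), and without control 3 it was 0.098. Atg10, which passes ATG12 to ATG5, had 18.8, 10.9 and 14.9 CPM in the controls, against 18.0, 23.6 and 19.0 CPM among the knockouts. Control 2 was the lowest library and control 1 lay within the knockout range. Its log2 fold change was 0.43 (SE 0.29), with a 95% interval of -0.18 to 1.04 and an edgeR adjusted p of 0.999. It was 0.68 without control 1 and 0.23 without control 2, where Atg4b was higher at 0.25. Without both shallow libraries it was 0.31, below Atg12 at 0.43.

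None of the conjugate genes separated the groups. Atg5, the acceptor of ATG12, had 114, 104 and 117 CPM in controls 1 to 3, against 122, 106 and 105 CPM among knockouts 1 to 3. The ranges of the groups overlapped, with knockout 1 the highest library and control 2 the lowest, and the log2 fold change was -0.0057 (SE 0.16, edgeR adjusted p = 0.999). Its 95% interval of 0.789- to 1.26-fold was the narrowest of the set. Atg12, the ubiquitin-like protein itself, had 44.8, 31.9 and 51.1 CPM in the controls, against 56.6, 36.6 and 47.5 CPM among the knockouts. Replicate 2 was the lowest in each group, and the log2 fold change was 0.16 (SE 0.23, 95% interval -0.33 to 0.65). Atg16l1, which anchors the conjugate at the membrane, had 11.9, 15.0 and 9.43 CPM in the controls, against 10.5, 10.1 and 10.3 CPM among the knockouts. The knockout values lay inside the control range, with a coefficient of variation of 1.69% against 23.0%, and the log2 fold change was -0.26 (SE 0.33, 95% interval -0.95 to 0.43). Control 3 gave only 12 reads of Atg16l1, with an exact Poisson 95% interval of 4.87 to 16.5 CPM. Knockout 2 gave 39 reads, with an interval of 7.20 to 13.8 CPM, which is wider than the range of the knockout values. The closeness of the knockout values is therefore not read as likeness of the mice.

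The ATG4 proteases differ in substrate: ATG4B processes most members of the LC3 family, ATG4A prefers the GABARAP branch, and human ATG4C and ATG4D have little activity until they are cleaved. Atg4b had 55.0, 55.4 and 36.1 CPM in controls 1 to 3, against 53.2, 57.4 and 55.0 CPM among knockouts 1 to 3. All libraries other than control 3, which gave 46 reads, lay between 53.2 and 57.4 CPM, and the log2 fold change was 0.16 (SE 0.20, 95% interval -0.27 to 0.58). Atg4a had 16.4, 12.9 and 28.3 CPM in the controls, against 19.3, 15.6 and 15.4 CPM among the knockouts, with a log2 fold change of -0.12 (SE 0.31, 95% interval -0.78 to 0.54). Here control 3 was the highest library, and without both shallow libraries the log2 fold change was 0.24 (edgeR adjusted p = 0.931).

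Atg4c had 39.6, 27.2 and 49.5 CPM in the controls, against 35.1, 40.5 and 37.7 CPM among the knockouts, so that all knockout values fell inside the control range (log2 fold change -0.01, SE 0.23, 95% interval -0.51 to 0.48). Atg4d had 20.7, 23.7 and 22.0 CPM in the controls, against 22.2, 20.5 and 16.4 CPM among the knockouts (log2 fold change -0.17, SE 0.24, 95% interval -0.68 to 0.34). Knockout 3 was its lowest library, and the other 5 lay between 20.5 and 23.7 CPM. Of the exonic bases of Atg4d, 19.3% are shared with a gene on the opposite strand. Whether reads were counted by strand was not given in the sources used here, so part of its reads is uncertain. The edgeR adjusted p was 0.999 for Atg12, Atg16l1 and all ATG4 genes. Without both shallow libraries, 5 of the 9 genes other than Atg7 were above 0 and 4 below, with a median log2 fold change of 0.056, and edgeR again called 0 of them.

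**Figure D2:**
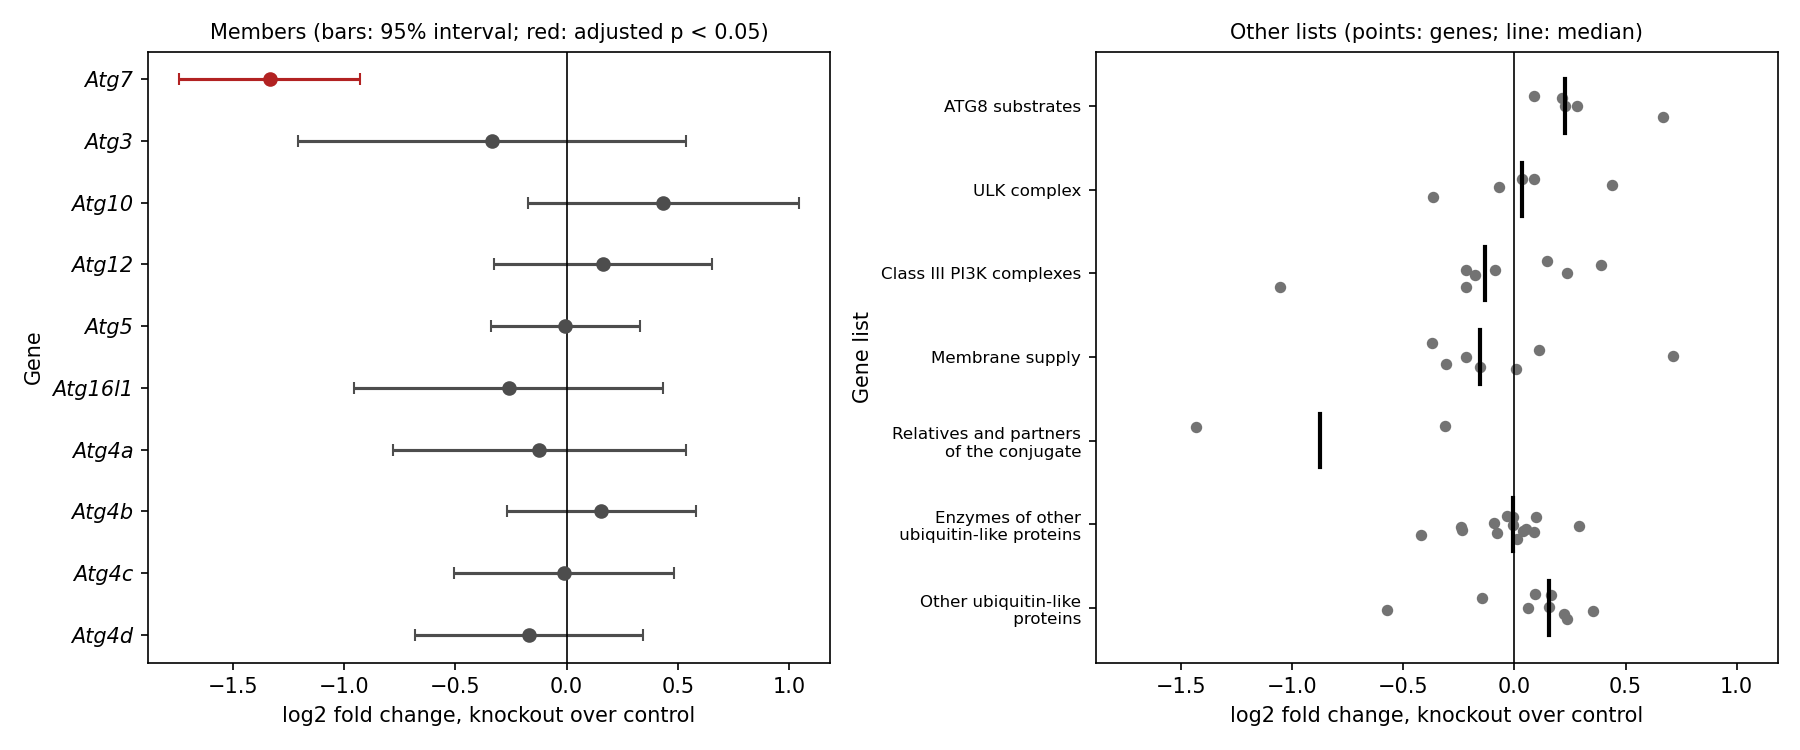
Log2 fold change of knockout over control from edgeR; left, the 10 genes with 95% intervals (red, adjusted p under 0.05); right, each tested gene of 7 other lists as a point with the list median as a line. The interval of Atg7, from -1.74 to -0.93, excludes 0, and the intervals of the other 9 genes include it.

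Levels of different genes were compared per kilobase of exon, since longer transcripts give more reads. In the controls Atg5 stood highest at 47.4 ± 2.96 CPM per kb (SD, n = 3) and did not overlap with any other member. Then came Atg4c (11.6 ± 3.34 CPM per kb), Atg7 (9.02 ± 0.78), Atg10 (8.66 ± 2.29), Atg4a (7.22 ± 3.03), Atg4b (5.90 ± 1.33), Atg12 (5.52 ± 1.27), Atg3 (4.27 ± 2.39) and Atg4d (3.04 ± 0.21). Each of these 8 genes overlapped with its neighbour in the order, so neighbouring places are not separated by the spread. Genes farther apart were in part separated: all controls of Atg7 lay above those of Atg4b, Atg12, Atg3 and Atg4d, and all controls of Atg4d lay below those of the others except Atg3. Atg16l1 was lowest at 1.26 ± 0.29 CPM per kb, with all 3 controls below those of Atg4d.

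In the knockouts Atg5 was again first at 47.2 ± 4.25 CPM per kb and Atg16l1 last at 1.07 ± 0.018 CPM per kb, while Atg7 stood seventh at 3.60 ± 0.20 CPM per kb. The SD of Atg16l1 in the knockouts is smaller than its counting error in knockout 2. These lengths are the union of all GENCODE M21 exons, retained introns included. With the longest transcript as the length, 4 of the 10 genes kept their place in the controls. Atg7 then stood second in the controls at 16.1 ± 1.40 CPM per kb and seventh in the knockouts at 6.44 ± 0.36, and Atg5, Atg3, Atg4d and Atg16l1 were those that kept their place. When both shallow libraries were left out instead, 6 of the 10 genes kept their place in the controls.

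**Figure D3:**
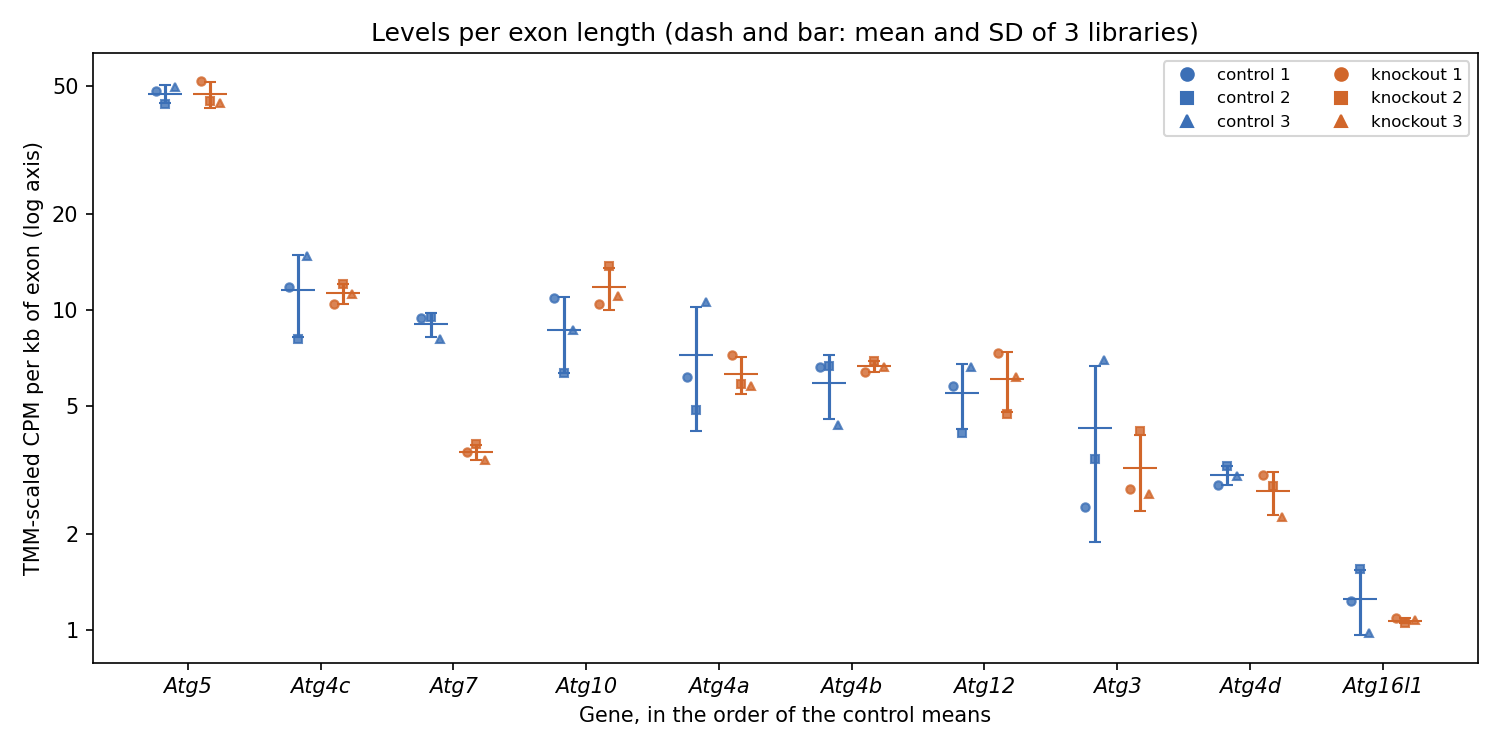
TMM-scaled CPM per kilobase of exon (log axis) of the 10 genes, ordered by the control mean, with a point per library and the mean and SD of 3 libraries per group. Atg5 stands highest at 47.4 CPM per kb in the controls, and Atg7 is the gene whose groups separate, at 9.02 against 3.60 CPM per kb.

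Levels of genes whose products act in the same pathway were also set against each other within each library. The level of Atg7 per kilobase relative to Atg10, its partner for ATG12, was 0.861, 1.50 and 0.934 in controls 1 to 3, against 0.343, 0.276 and 0.307 among knockouts 1 to 3, without overlap. Relative to Atg5, the acceptor of ATG12, the level of Atg7 was 0.195, 0.216 and 0.163 in the controls, against 0.069, 0.0846 and 0.0765 among the knockouts, again without overlap. The level of Atg7 by itself already separated the groups, so these separations are not further results. Relative to Atg3, its partner for LC3, Atg7 was at 3.89, 2.79 and 1.16 in the controls, against 1.30, 0.905 and 1.28 among the knockouts. Here the groups overlapped, with control 3, whose Atg3 value was high, at 1.16. The level of Atg12 relative to Atg5 was 0.116 ± 0.02 in the controls and 0.128 ± 0.0197 in the knockouts (SD, n = 3), a difference smaller than the spread. These ratios describe RNA and not the amounts of protein or conjugate.

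The pattern of Atg7 across the 6 libraries was compared with that of 5660 tested genes with a mean of at least 20 CPM. Pseudogenes and genes with only a provisional name (Gm number or Rik) were left out. Likeness was the root mean square difference between log2 CPM values centred on each gene's own mean. The nearest genes were the kelch domain gene Klhdc8b (0.20), Cx3cr1 (0.23), the class II antigen loading gene H2-Oa (0.25), the calcium-binding chaperone gene Calr (0.26) and the orphan receptor gene Gpr165 (0.27). Klhdc8b had 33.4, 28.6 and 31.4 CPM in the controls, against 16.3, 12.7 and 14.2 CPM among the knockouts. Cx3cr1 had 11018, 9581 and 11260 CPM in the controls, against 4394, 4126 and 5611 CPM among the knockouts; it is the locus that drives the Cre. H2-Oa shares 22.8% of its exonic bases with a gene on the opposite strand. None of the other 9 genes of the conjugation set was among the nearest: the closest, Atg16l1, had a difference of 0.57, and 635 of the 5660 compared genes were nearer to Atg7. These genes were chosen for their pattern, so no test is given for them.

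**Figure D4:**
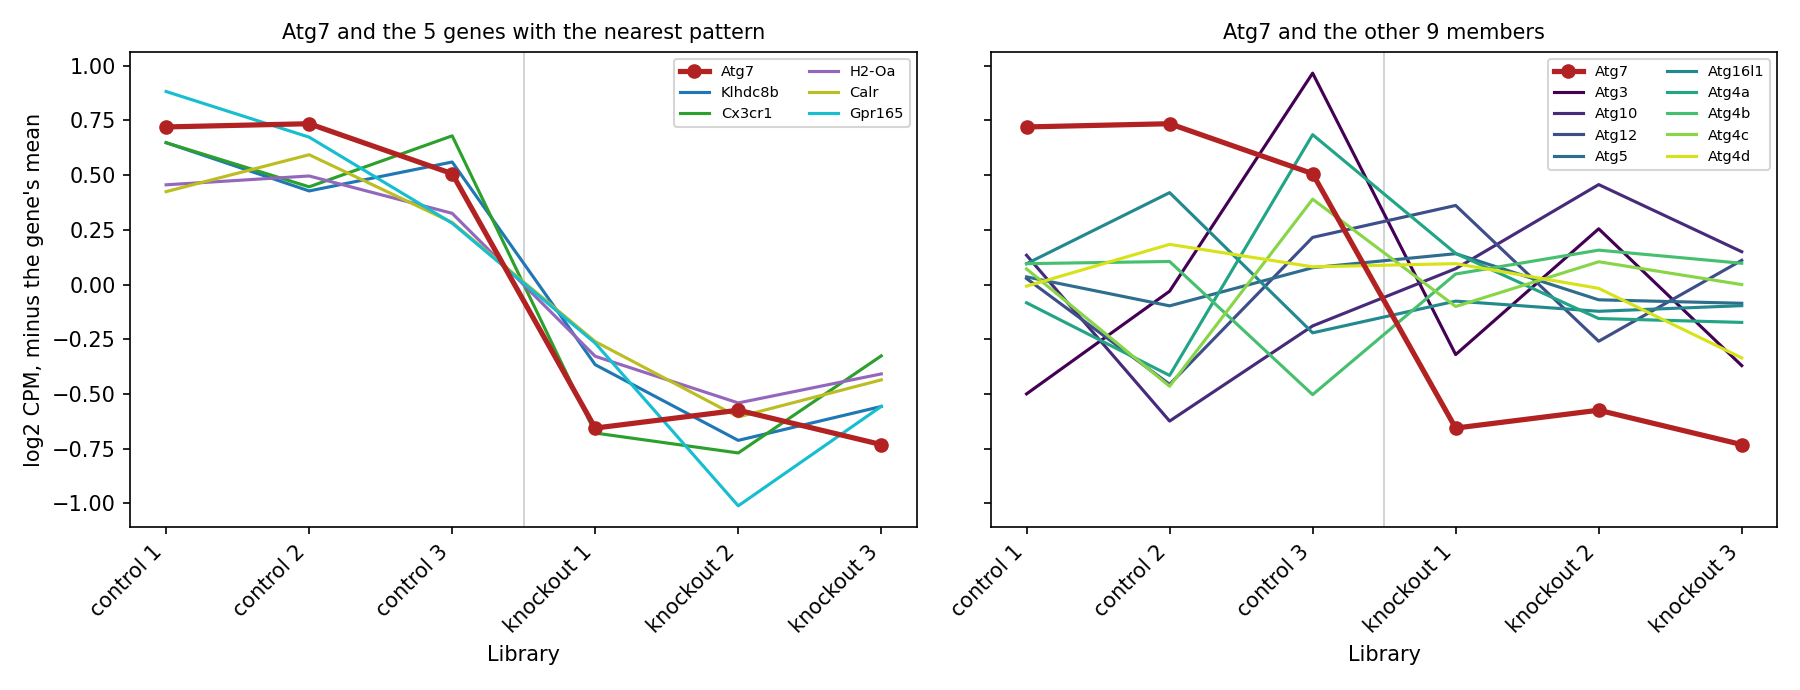
Log2 CPM of each gene minus its own mean in the 6 libraries, for Atg7 with the 5 genes nearest to it (left) and with the other 9 genes of the set (right); the lines only join the values of a gene. The 5 nearest genes differ from Atg7 by 0.20 to 0.27 (root mean square, log2), and the nearest of the other 9 genes, Atg16l1, by 0.57.

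The substrates of the conjugation enzymes and the other core autophagy genes were examined beside them. Of the 5 ATG8 substrate genes (LC3 and GABARAP proteins), all tested, edgeR called 0, and 1 was higher at an unadjusted p under 0.05; all 5 had log2 fold changes above 0, with a median of 0.23. Gabarapl1, a GABARAP-branch gene, had 28.4, 23.0 and 14.9 CPM in controls 1 to 3, against 33.6, 36.9 and 38.7 CPM among knockouts 1 to 3. The groups did not overlap, but its log2 fold change of 0.67 (SE 0.24) had an edgeR adjusted p of 0.999, and 28.3% of its exonic bases are shared with a gene on the opposite strand. Map1lc3b, an LC3 gene, had 335, 371 and 222 CPM in the controls, against 342, 354 and 395 CPM among the knockouts (log2 fold change 0.23, SE 0.18). Without both shallow libraries 2 of the 5 substrates were above 0 and 3 below, with a median of -0.048.

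Genes of the ULK complex, which starts autophagosome formation, had 0 of 5 called, 3 above 0 and a median log2 fold change of 0.04; Rb1cc1 had -0.37 (SE 0.33) and Ulk1 0.44 (SE 0.41). Class III phosphoinositide kinase complexes had 0 of 8 called, 3 above 0 and a median of -0.13. Their catalytic subunit gene Pik3c3 had 42.5, 37.4 and 41.6 CPM in the controls, against 49.1, 42.1 and 67.6 CPM among the knockouts (0.39, SE 0.21, edgeR adjusted p = 0.999). Nrbf2, a regulatory subunit gene, had 773, 686 and 0 reads in controls 1 to 3, or 20.3, 18.4 and 0 CPM, and 7.75, 6.75 and 5.76 CPM in the knockouts. A count of 0 in control 3 allows up to 2.36 CPM at 3 reads, which is below every other library, and no fold is given. In the class III kinase list the median was 0.015 without both shallow libraries, with 4 genes above 0 and 4 below.

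Genes of membrane supply (ATG9, ATG2 and WIPI proteins) had 0 of 7 tested called, 3 above 0 and a median of -0.15. Atg2a, a lipid transfer protein gene, had 15.1, 12.4 and 11.0 CPM in controls 1 to 3, against 15.7, 28.1 and 21.1 CPM among knockouts 1 to 3. Its groups did not overlap, with a log2 fold change of 0.71 (SE 0.29, edgeR unadjusted p = 0.0276, adjusted p = 0.999). Wipi2, which recruits ATG16L1 to the growing membrane, had 28.2, 24.8 and 13.4 CPM in the controls, against 15.6, 14.3 and 23.1 CPM among the knockouts (-0.37, SE 0.30). Across these autophagy lists, 25 of 26 genes were tested, 14 were above 0 and 11 below, and edgeR, DESeq2 and voom each called 0. The groups did not overlap in 3 of the 25, beside 11.1% of all genes tested, and 2 had an unadjusted p under 0.05 (both higher), beside 4.32% of all genes, so neither count is read as a result about these lists.

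Among relatives and partners of the conjugate, Atg16l2, a paralog of Atg16l1, had 18.5, 13.3 and 25.1 CPM in controls 1 to 3, against 15.9, 15.8 and 12.8 CPM among knockouts 1 to 3 (log2 fold change -0.31, SE 0.30). Tecpr1, whose product binds the ATG12-ATG5 conjugate, had 37.9, 40.0 and 1628 CPM in the controls, against 34.9, 542 and 54.2 CPM among the knockouts. The high values were those of the shallow libraries. In reads, Tecpr1 had 1443, 1488 and 2072 in the controls, against 1179, 2086 and 1166 among the knockouts, so its count hardly followed the depth of the library, and its log2 fold change of -1.43 had an SE of 2.13.

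ATG7 belongs to a family of activating enzymes, and the enzymes of other ubiquitin-like proteins serve as a comparison that the deletion does not target. Of 14 such enzyme genes, all tested, edgeR, DESeq2 and voom called 0, and 0 had an unadjusted p under 0.05. Their median log2 fold change was -0.0057, with 6 above 0 and 8 below. Nae1, a subunit gene of the NEDD8-activating enzyme, had 0.29 (SE 0.25). Of 9 genes for other ubiquitin-like proteins 0 were called by these tools and 0 had an unadjusted p under 0.05, with 7 above 0 and a median of 0.16. Fau, whose product joins a ubiquitin-like protein to a ribosomal protein, had 349, 403 and 245 CPM in the controls, against 365, 490 and 419 CPM among the knockouts (0.35, SE 0.18). Urm1, a sulfur carrier for tRNA modification, had 11.1, 11.2 and 12.6 CPM in the controls, against 7.46, 6.23 and 9.39 CPM among the knockouts. Its groups did not overlap (-0.57, SE 0.35, edgeR adjusted p = 0.999). The groups did not overlap in 2 of the 9 genes, beside 11.1% of all genes tested, and the other gene was higher in the knockouts. This count is not read as a result about the list.

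The promoters of the set were read from a RefSeq table (GRCm38.p6; 250 bases before to 50 after each start), in which 8 of the 10 genes had 10 entries. They were searched on both strands for the E-box CACGTG, which reads the same on each strand and is the core of the site bound by TFEB, a regulator of autophagy and lysosome genes. Atg3, Atg5 and Atg7 held it, as did 7.15% of all 32851 promoters in the table. The start given for Atg7 lies 9066 bases from the nearest GENCODE M21 start, so its window is not shown. The GC-box GGGCGG was in 6 of the 10 entries and in 35.7% of all promoters, and TATAAA was in 1 entry and in 13.6% of all. The entry with TATAAA is an Atg4a window whose start lies 3062 bases from the nearest GENCODE M21 start. The Atg4a window at an annotated start had no TATAAA. The Atg3 and Atg5 windows are shown as the enzyme and the conjugate gene with an E-box near an annotated start; capitals mark CACGTG, whose first base lies 94 and 71 bases before the start in Atg3 and 14 bases before it in Atg5. The Atg3 window is chr16:45158579-45158878 and the Atg5 window chr10:44268089-44268388, both on the plus strand.
Atg3 promoter: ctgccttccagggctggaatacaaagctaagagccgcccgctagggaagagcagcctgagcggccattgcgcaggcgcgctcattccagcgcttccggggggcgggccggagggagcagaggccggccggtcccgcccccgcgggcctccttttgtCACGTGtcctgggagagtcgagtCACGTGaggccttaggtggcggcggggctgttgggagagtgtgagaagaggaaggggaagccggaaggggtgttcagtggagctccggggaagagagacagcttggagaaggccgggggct
Atg5 promoter: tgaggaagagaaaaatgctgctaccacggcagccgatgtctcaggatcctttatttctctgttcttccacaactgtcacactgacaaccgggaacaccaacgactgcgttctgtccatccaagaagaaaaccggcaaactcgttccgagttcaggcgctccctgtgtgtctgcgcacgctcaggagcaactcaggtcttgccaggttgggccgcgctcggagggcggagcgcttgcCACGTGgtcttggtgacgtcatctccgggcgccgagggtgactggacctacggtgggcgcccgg

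A match is a description of these letters and not a bound site. Of these genes, neither Atg3 nor Atg5 was called between the groups, with log2 fold changes of -0.34 and -0.0057 as given above.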

How the data were processed

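The table the authors deposited gives a raw read count for each gene and library, as its whole numbers and unequal totals show. Libraries were built from SMARTer Ultra Low cDNA by shearing, adapter ligation and PCR, per the labels' protocols; no molecular identifiers are mentioned, so Poisson intervals and floors cover counting error only. Per the submitters' processing notes, the tools included STAR, featureCounts and Salmon and the build was GRCm39; settings are not given in the sources used here. Of 55774 rows, 287 repeated an identifier and were left out; 99.5% of identifiers were found in GENCODE M21 (GRCm38), which gave exon lengths and overlaps.

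Counts were tested with edgeR 4.0.16 (R 4.3.3): default expression filter, TMM scaling, robust quasi-likelihood F-test with group as the only term, Benjamini-Hochberg adjustment over 15787 genes, called at an adjusted p under 0.05. Intervals use the standard error and the fit's degrees of freedom. CPM values are TMM-scaled; likeness used log2(CPM + 0.5). DESeq2 1.42.0, limma voom (3.58.1), other scalings and filters, the replicate block and left-out libraries were alternatives. The steps were tested on simulated data. Genes were named by rule: all 10 members, the 5 nearest to Atg7, and in 7 lists of related genes the called members or up to 2 with the smallest p; 1 gene so named is not reported here. Members, lists and the pair of shallow libraries were chosen with earlier results of these data known. Per the labels, each library is a separate biological replicate.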

Additional observations from a re-analysis of the deposited data

How the results depend on the processing

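Atg7 kept its direction in all alternatives. In edgeR without the robust option its log2 fold change of -1.33 had an adjusted p of 0.066, and 0 of the 10 genes and 2 genes in all were called. With a library left out, its log2 fold change was -1.41 to -1.29, 0 to 1 of the 10 genes were called, and 2 to 50 genes in all, 50 being the count without control 3. The count of 7 genes called in all was 102 with no filter, 83 by DESeq2, 15 by limma voom, 4 by voom with library weights and 39 without both shallow libraries. With the replicate block 25 genes were called (16 higher, 9 lower) and Atg7 had an adjusted p of 0.0058. Deviations from the group mean in libraries with the same number had correlations over genes of 0.643, -0.562 and -0.107. Control 3 correlated best with knockout 2 (0.696), and these are the shallow libraries. Depth and pairing cannot be told apart here, so the correlations do not show whether the numbers pair the mice.

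Small fold changes changed sign. Atg5 had 0.045 with library totals, 0.040 by voom, 0.024 by voom with weights and 0.056 without both shallow libraries; in the same order Atg4c had 0.035, 0.14, 0.096 and 0.12, and 0.0065 with the replicate block. Atg4a had 0.21 by voom, 0.17 with weights and 0.24 without both shallow libraries, where Atg4b had -0.034. With a library left out the ranges were -0.64 to 0.098 for Atg3, -0.10 to 0.019 for Atg5, -0.016 to 0.29 for Atg12, -0.36 to 0.19 for Atg4a, -0.011 to 0.25 for Atg4b and -0.22 to 0.16 for Atg4c. Atg10 (0.23 to 0.68), Atg16l1 (-0.39 to -0.064) and Atg4d (-0.29 to -0.069) kept their sign but moved by over 1.5 times. The cause was not tested. In control 3 a floor of 3 reads is 2.36 CPM, beside 12 reads of Atg16l1 and 19 of Atg10, the lowest counts of the set there.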

Other observations

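Tecpr1 was not alone in being high in both shallow libraries. Among 10266 genes with at least 5 CPM in a deeper library, 30 had values in control 3 and knockout 2 at least 5-fold above the highest of the other 4 libraries, a threshold chosen after the values were seen. Together these 30 genes took 6.11% of scaled reads in control 3 and 2.58% in knockout 2, against 0.0245%, 0.0238%, 0.0224% and 0.115% in controls 1 and 2 and knockouts 1 and 3. Rad9b, a gene of the DNA damage checkpoint, had 30314 CPM in control 3, 10511 CPM in knockout 2 and 342 CPM in knockout 3, against 15.4 to 18.7 CPM in the remaining libraries. Tecpr1 was 30.0-fold and 9.99-fold above the highest other library in control 3 and knockout 2. Of 8700 genes with at least 5 CPM in all 4 deeper libraries, 1 was at least 5-fold lower in both, the G protein-coupled receptor kinase gene Grk6 (5.21 to 9.79 CPM in the deeper libraries, 0 in control 3 and 0.52 in knockout 2), and 0 of the 10 conjugation genes were in either group. The 30 genes were picked for high values in control 3 and knockout 2, so the high shares of these libraries follow from the choice. Among the deeper libraries, knockout 3, which had the fewest reads, had the highest share (0.115%). Control 1, which had the most reads, had a higher share (0.0245%) than knockout 1 (0.0224%). The cause of the high values was not tested.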
